A study of Mus musculus with 3 samples.

Results

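The Hox genes are the 39 rows of the deposited feature list whose symbol is Hox followed by a cluster letter from a to d and a paralog number. They were taken by that symbol rule alone, out of 32288 features, and all 39 were present in each of the 3 libraries. Of these 39, 36 had at least 1 count in at least 1 library, and Hoxb1, Hoxb13 and Hoxd12 had none.

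The cells came from the mouse patellar tendon, the tendon that joins the kneecap to the shin bone. The genotype label was WT throughout, and the libraries differ in age: a single one from mice of 2 weeks and a pair from mice of 20 weeks (20-week replicates 1 and 2). Tissue of both ages was digested with type I collagenase, and both went through a sort that kept cells negative for haematopoietic and endothelial surface markers. The labels do not give the number of animals behind a library, so the p-values here measure the spread between these libraries, which may be technical. In the age tests of single classes that spread was pooled over all genes and not measured gene by gene.

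Hox proteins are transcription factors that bind DNA through the homeodomain and often act together with cofactors of the TALE class. Their genes lie in 4 clusters, and their order along a cluster follows the order in which they are switched on along the body axis and, in the limb, from shoulder or hip to the digits. In the mouse limb, genes of paralog numbers 9 and 10 are known for the upper segment, those of paralog number 11 for the middle segment and those of paralog number 13 for the hand and foot. Connective tissue cells of the adult are known to keep part of this code.

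Levels are given as unique molecular identifiers (UMIs, one per captured mRNA molecule) and as UMIs per 1000000 UMIs (CPM), which counts captured 3′ ends and is not scaled by gene length. Intervals are exact Poisson 95% intervals for levels and exact binomial 95% intervals for shares of cells, and cover counting error only. After filtering, the 2-week library held 4924 cells, 20-week replicate 1 held 606 and 20-week replicate 2 held 1013, with 34161891, 1784845 and 5568812 UMIs. Before doublet removal the median cell had 6570, 2848 and 5132 UMIs. The 20-week replicates differed by more than sampling noise, with a chi-square of 32.3 per degree of freedom over 11697 genes. Barcodes shared between libraries numbered at most 1 for any pair. Cells were grouped into 19 clusters without the Hox genes and the noncoding RNAs of their clusters, so that Hox levels played no part in the grouping, and 13 clusters were named from marker genes. The 8 tenocyte markers were all detected in each library, at 4685, 12250 and 3241 CPM in sum. Endothelial markers summed to 4.42, 3.36 and 19.4 CPM and macrophage markers to 4.92, 6.72 and 33.4 CPM. In 20-week replicate 2 the B-lineage markers, at 704 CPM against 10.4 and 4.48 CPM, came with 64 B-lineage-like cells that a finer clustering set apart.

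The Hox genes were carried mainly by clusters A and C and by paralog numbers 9 and 10. In the 2-week library all Hox genes together had 9362 UMIs, or 274 CPM (269 to 280). In 20-week replicate 1 they had 359 UMIs, or 201 CPM, and in 20-week replicate 2 they had 1447 UMIs, or 260 CPM. HoxA genes made up 50.4%, 41.0% and 39.6% of the Hox UMIs in the 2-week library and 20-week replicates 1 and 2. HoxC genes made up 36.7%, 43.5% and 43.3%, and HoxD genes 11.8%, 14.2% and 16.4%. HoxB genes gave 1.12%, 1.39% and 0.691%. The HoxA share was thus above the HoxC share in the 2-week library. In both 20-week libraries it was below, though the counting intervals of the HoxA and HoxC levels overlapped there (147 against 156 UMIs and 573 against 626 UMIs).

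Read by paralog number, numbers 9 and 10 gave 65.6%, 58.8% and 56.9% of the Hox UMIs in the same 3 libraries. Paralog number 11 gave 12.4%, 12.3% and 17.2%, and numbers 5 to 8 gave 18.1%, 23.1% and 18.3%. Numbers 1 to 4, the genes of the head and neck end, gave 3.43%, 4.74% and 5.05%, and numbers 12 and 13, the genes of the tail end and the digits, 0.417%, 1.11% and 2.56%. Within HoxA and HoxC paralog number 10 had the highest level in every library, above its neighbours 9 and 11, as the plot of levels by paralog number shows.

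**Figure D1:**
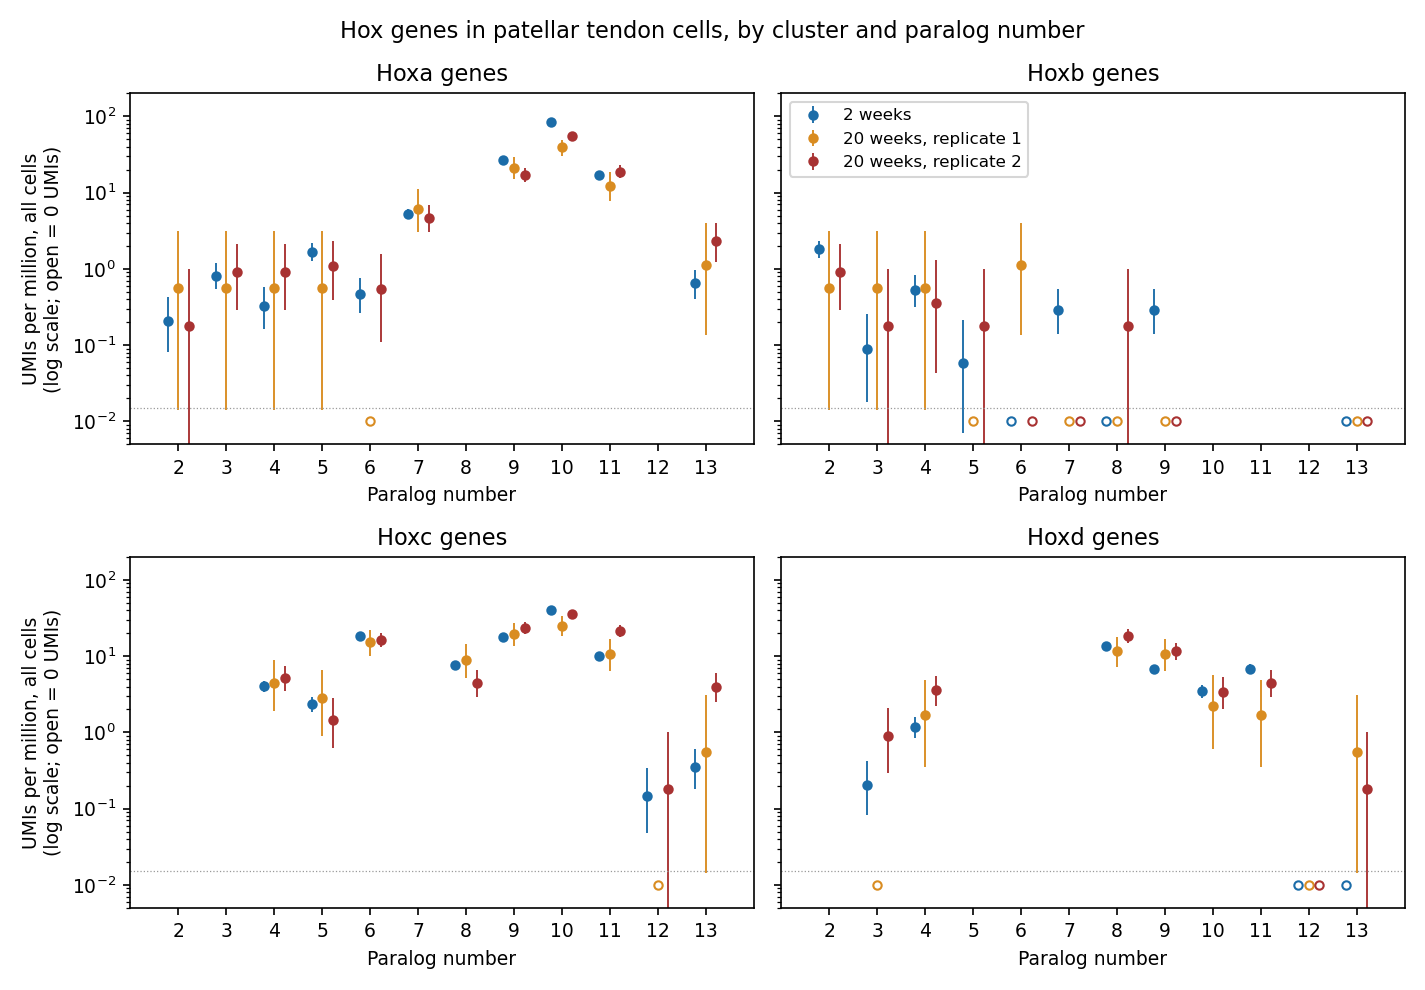
CPM over all cells (log axis) of the Hox genes of paralog numbers 2 to 13 against their paralog number, 1 panel per cluster, for the 2-week library and both 20-week replicates; bars are exact Poisson 95% intervals and open points are genes with 0 UMIs. Hoxa10, at 39.2 to 84.9 CPM, and Hoxc10, at 25.2 to 39.8 CPM, stand highest, and no HoxB gene passes 1.81 CPM.

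The HoxA cluster lies on chromosome 6 (GRCm38), with its genes on the minus strand. Hoxa10 (ENSMUSG00000000938) was the most abundant Hox gene in each library, with 2901 UMIs or 84.9 CPM (81.9 to 88.1) at 2 weeks, 70 UMIs or 39.2 CPM (30.6 to 49.6) in 20-week replicate 1 and 313 UMIs or 56.2 CPM (50.2 to 62.8) in 20-week replicate 2. Both 20-week libraries lay below the 2-week library, and their intervals did not meet each other. Its neighbour Hoxa9, at 26.6, 21.3 and 17.2 CPM in the 2-week library and 20-week replicates 1 and 2, and Hoxa11, at 17.0, 12.3 and 18.9 CPM, came next. Hoxa7 had 5.21, 6.16 and 4.67 CPM. Hoxa2 to Hoxa6 and Hoxa13 stayed at or under 2.33 CPM in all 3 libraries.

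The HoxC cluster lies at chr15:102921103-103036852 on the plus strand. Hoxc10 was second to Hoxa10 in every library, at 39.8 CPM (37.7 to 42.0), 25.2 CPM (18.4 to 33.7) and 35.6 CPM (30.8 to 40.9). Hoxc6, Hoxc9 and Hoxc11, whose products pattern the trunk and limbs, formed the next step. Hoxc6 had 18.2, 15.1 and 16.5 CPM, Hoxc9 17.9, 19.6 and 23.7 CPM, and Hoxc11 10.2, 10.6 and 21.4 CPM. The counting intervals of Hoxc6 and Hoxc9 overlapped in each of the 3 libraries, and their order was not the same in all 3. Hoxc8 had 7.64, 8.96 and 4.49 CPM and Hoxc4 4.01, 4.48 and 5.21 CPM. Hoxc5 had 2.34, 2.80 and 1.44 CPM, and 166 bases of its exons are shared with Hoxc10 on the same strand.

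HoxD genes, at chr2:74668310-74765142 on the plus strand, followed another order. Their highest member was Hoxd8, at 13.8 CPM (12.5 to 15.1), 11.8 CPM and 18.5 CPM (15.1 to 22.4). Hoxd9 had 6.73, 10.6 and 11.7 CPM, and Hoxd11 had 6.88, 1.68 and 4.49 CPM from 235, 3 and 25 UMIs. Hoxd10, described here after its values were seen because it lies between them, had 3.45, 2.24 and 3.41 CPM. Hoxd8 was thus the leading HoxD gene, whereas HoxA and HoxC were led by paralog number 10.

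The genes of the far end were scarce. Hoxd12 and Hoxb13 had 0 UMIs in every library, and Hoxd13 had 0, 1 and 1 UMIs. For a gene with 0 UMIs, the limit of 3 counts is 0.0878, 1.68 and 0.539 CPM in the 3 libraries. Hoxc12 had 5, 0 and 1 UMIs. Hoxa13 had 22, 2 and 13 UMIs, or 0.644, 1.12 and 2.33 CPM. Hoxc13 had 12, 1 and 22 UMIs, or 0.351, 0.560 and 3.95 CPM, so that 20-week replicate 2 alone held more of its UMIs than the far deeper 2-week library. The 10 HoxB genes at chr11:96194316-96368256 summed to 120 UMIs over all libraries, of which Hoxb2, named after its values were seen, gave 68 (62, 1 and 5).

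Cells with at least 1 Hox UMI were common. With each cell thinned to 2000 UMIs, 41.6% (40.2 to 43.0) of 4688 cells of the 2-week library, 32.3% of 464 cells of 20-week replicate 1 and 38.7% of 891 cells of 20-week replicate 2 had one. The median depths before thinning were 6724, 3234 and 5670 UMIs, and 236, 142 and 122 shallower cells were left out. Without thinning the shares were 75.4%, 42.7% and 64.7%. As a background, 2 of 64 B-lineage-like cells of 20-week replicate 2, or 3.13% (0.381 to 10.8) at a median of 4512 UMIs, had a Hox UMI, thinned to 2000 or not, and their Hox total was 5.48 CPM. Thinned cells had 0.526, 0.392 and 0.495 different Hox genes on average, and 9.41%, 6.47% and 9.32% of them had 2 or more.

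The homeoboxes of paralog numbers 10 and 11 are shown to compare these related genes, which include Hoxa10 and Hoxc10 and the paralog number 11 genes whose counts differ between cell classes. Each sequence is the 180 bases that encode the homeodomain, from GENCODE M21 transcripts on GRCm38, 5′ to 3′ on the coding strand, and each lies in 1 exon of the gene. Capitals mark 18 bases that encode the conserved core of the DNA-contacting helix.
Hoxa10, chr6:52232554-52232733, minus strand: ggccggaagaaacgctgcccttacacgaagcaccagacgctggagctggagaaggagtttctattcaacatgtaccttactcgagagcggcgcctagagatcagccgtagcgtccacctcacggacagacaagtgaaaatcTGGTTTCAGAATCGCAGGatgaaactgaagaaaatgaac
Hoxc10, chr15:102970848-102971027, plus strand: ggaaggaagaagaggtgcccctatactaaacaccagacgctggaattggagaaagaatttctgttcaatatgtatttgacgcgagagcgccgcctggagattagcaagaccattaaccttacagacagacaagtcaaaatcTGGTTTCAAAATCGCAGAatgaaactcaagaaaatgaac
Hoxd10, chr2:74694141-74694320, plus strand: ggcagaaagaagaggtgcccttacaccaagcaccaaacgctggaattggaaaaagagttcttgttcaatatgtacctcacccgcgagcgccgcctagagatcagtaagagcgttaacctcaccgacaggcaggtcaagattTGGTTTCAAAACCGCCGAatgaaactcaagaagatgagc
Hoxa11, chr6:52243402-52243581, minus strand: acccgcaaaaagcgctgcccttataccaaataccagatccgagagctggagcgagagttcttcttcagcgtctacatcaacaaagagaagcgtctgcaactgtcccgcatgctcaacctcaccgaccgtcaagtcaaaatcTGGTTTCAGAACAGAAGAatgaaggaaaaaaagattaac
Hoxc11, chr15:102956480-102956659, plus strand: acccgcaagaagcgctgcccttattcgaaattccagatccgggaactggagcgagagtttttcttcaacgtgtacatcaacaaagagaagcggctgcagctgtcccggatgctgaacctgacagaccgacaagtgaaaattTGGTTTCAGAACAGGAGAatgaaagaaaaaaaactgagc
Hoxd11, chr2:74683917-74684096, plus strand: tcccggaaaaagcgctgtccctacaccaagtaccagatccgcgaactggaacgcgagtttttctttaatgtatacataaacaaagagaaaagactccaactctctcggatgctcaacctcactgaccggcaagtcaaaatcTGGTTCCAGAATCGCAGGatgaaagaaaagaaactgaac

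The homeoboxes of Hoxa10, Hoxc10 and Hoxd10 were 78.9% to 82.8% identical to each other, and those of Hoxa11, Hoxc11 and Hoxd11 79.4% to 86.7%. Over all 39 genes, pairs of the same paralog number were 67.2% to 93.9% identical (median 80.6%), and pairs of different numbers 46.1% to 88.9% (median 60.6%). The longest run of bases shared by transcripts of genes in different clusters was 52, between Hoxa6 and Hoxb4. Within a cluster longer runs occur where exons overlap on the same strand, as for Hoxd3 and Hoxd4 with 388 bases and Hoxc5 and Hoxc10 with 168 bases, so UMIs of these pairs may be uncertain. In all, 9 of the 39 genes have such an overlap with another gene. How the counting treated them is not given in the sources used here.

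Among the cell types, Hoxa10 was detected in tenocyte-like, progenitor-like and mural-like cells of every library, while levels of HoxC, HoxD and paralog number 11 genes differed between classes. Classes were named from markers, and tenocyte-like, progenitor-like and mural-like cells were present in all 3 libraries. Tenocyte-like cells (695, 243 and 164 cells in the 2-week library and 20-week replicates 1 and 2) came at 2 weeks mostly from clusters 6 and 10 and at 20 weeks mostly from cluster 7, whose leading genes include Ibsp and Spp1. Osteogenic markers in this class summed to 27.3, 8445 and 4248 CPM, and their part in the results was not tested. Progenitor-like cells (881, 142 and 480 cells), which carry Cd55 and Pi16, came at 2 weeks mostly from clusters 2 and 12 and at 20 weeks mostly from cluster 4. Mural-like cells, the smooth-muscle-like and pericyte-like cells of vessel walls, numbered 673, 44 and 36. At 20 weeks they held 95105 and 70591 UMIs in all, against 4755575 at 2 weeks. Chondrocyte-like cells (632) and osteogenic-like cells (151) came from the 2-week library with at most 1 cell in a 20-week library. Clusters that met no rule for a name held 1723, 167 and 215 cells.

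Total Hox levels differed less between classes than single genes did. Tenocyte-like cells had 319, 223 and 411 CPM in the 2-week library and 20-week replicates 1 and 2, and progenitor-like cells had 229, 193 and 244 CPM, lower in each library. Mural-like cells had 264 CPM at 2 weeks and 137 and 609 CPM at 20 weeks, the last from 43 UMIs. In the 2-week library chondrocyte-like cells had 354 CPM, osteogenic-like cells 348 CPM, myogenic-like cells 208 CPM and the 34 Schwann-like cells 113 CPM from 13 UMIs.

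**Figure D2:**
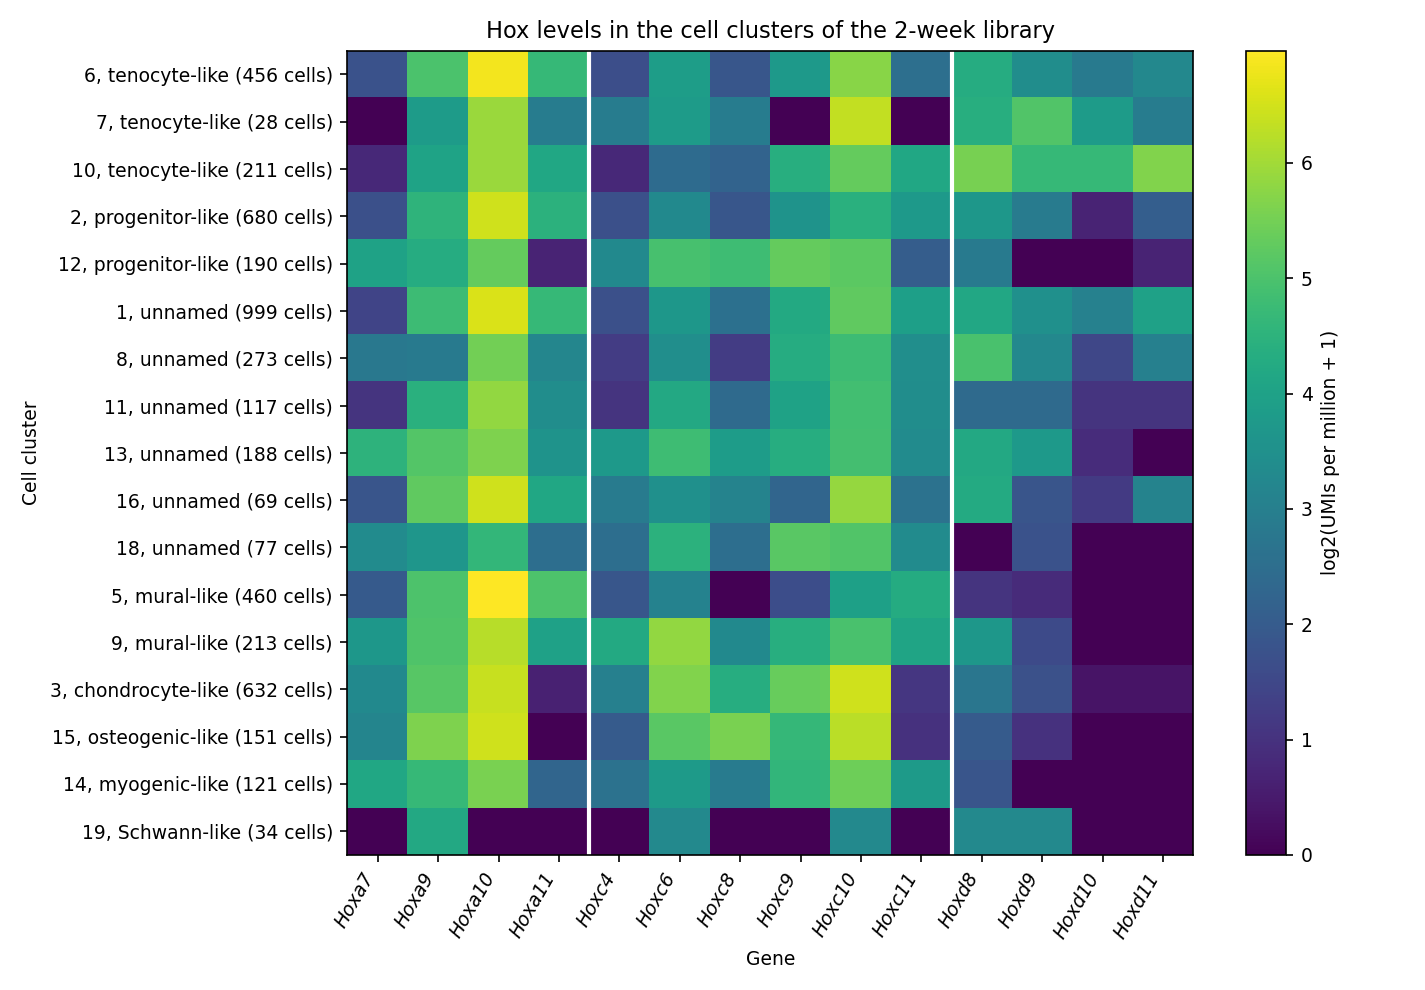
Levels of the 13 Hox genes with at least 5 CPM in a library, and of Hoxd10, as log2(CPM + 1) by colour, in each cell cluster of at least 20 cells of the 2-week library; columns are genes in cluster order and rows are cell clusters with their class and number of cells. Hoxa10 and Hoxc10 are bright in nearly every row, and Hoxa11, Hoxc11, Hoxd10 and Hoxd11 are dark in the chondrocyte-like and osteogenic-like rows.

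Tenocyte-like and progenitor-like cells differed in Hoxd9. Hoxd9, a HoxD gene of the upper limb segment, had 82 UMIs or 13.5 CPM, 12 UMIs or 16.4 CPM and 19 UMIs or 24.6 CPM in tenocyte-like cells of the 2-week library and 20-week replicates 1 and 2. In progenitor-like cells it had 4.88, 6.73 and 13.3 CPM, lower in each of the 3 libraries. Hoxd9 was higher in tenocyte-like than in progenitor-like cells by 1.46 ± 0.32 (SE) on the log2 scale, with an adjusted p of 0.0366 in edgeR's quasi-likelihood test with the library as a block. It was the 1 Hox gene called higher among the 9 of 39 that passed the low-count filter, where 4.58% of all 9658 genes tested were called higher, 5.71% lower and 10.3% in either direction. The call was lost without the block (adjusted p = 0.188), with DESeq2 (0.136), with Hox genes among the clustering genes (0.0624, over 2 libraries, since 20-week replicate 2 then had 11 progenitor-like cells) and when any 1 library was left out (0.0756 to 0.157), with positive estimates in each.

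The other tested genes of this comparison did not pass the threshold. Hoxa9 differed by 1.36 ± 0.35 (adjusted p = 0.0664), Hoxa11 by 1.16 ± 0.30 (0.0649) and Hoxd8 by 1.04 ± 0.40 (0.192), all with higher estimates in tenocyte-like cells. Estimates were positive for 8 of the 9 tested genes, and the median over these 9 was 0.70 against 0.02 over all genes tested. Hoxc11 alone was negative, at -0.83 ± 0.47 (adjusted p = 0.374). Its levels were 7.41, 2.73 and 11.7 CPM in tenocyte-like cells and 10.4, 24.7 and 24.3 CPM in progenitor-like cells, higher in the latter in each library.

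Hoxd10 and Hoxd11, below the low-count filter of that test, had the widest gaps in counts. Hoxd11 had 107, 1 and 16 UMIs in tenocyte-like cells, or 17.6, 1.37 and 20.7 CPM, and 17, 1 and 6 UMIs in progenitor-like cells, or 2.59, 2.24 and 1.95 CPM. The gap was therefore seen in the 2-week library and in 20-week replicate 2, and not in 20-week replicate 1, where each class had 1 UMI. Hoxd10 had 64, 3 and 8 UMIs in tenocyte-like cells, or 10.5, 4.10 and 10.4 CPM, against 3, 0 and 9 UMIs in progenitor-like cells, or 0.458, 0 and 2.92 CPM. In the 2-week library the ratio was 23.0 for Hoxd10 (counting interval 7.53 to 115) and 6.79 for Hoxd11 (4.05 to 12.1). With no low-count filter both were called by edgeR, at 3.37 (adjusted p = 3.01e-05) and 3.08 (2.49e-07) on the log2 scale. They were among 6 Hox genes called higher of 35 tested, where 1141 of all 18488 genes tested were higher and 1021 lower. That fit pooled the spread nearly wholly over all genes, with 200.8 prior degrees of freedom against 4.331 in the main fit. Both were the Hox genes that DESeq2 called (adjusted p = 0.0403 and 0.0368), of 35 tested, 16 of them without an adjusted p. DESeq2 called 482 of all 18488 genes higher and 511 lower.

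The share of single cells with a HoxD transcript ran the same way. Thinned to 2000 UMIs, 11.8%, 7.18% and 16.0% of tenocyte-like cells in the 2-week library and 20-week replicates 1 and 2 had at least 1 UMI of Hoxd8 to Hoxd11. In progenitor-like cells the shares were 2.96%, 3.42% and 7.21%, and in chondrocyte-like cells of the 2-week library 1.52%. No B-lineage-like cell had one.

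**Figure D3:**
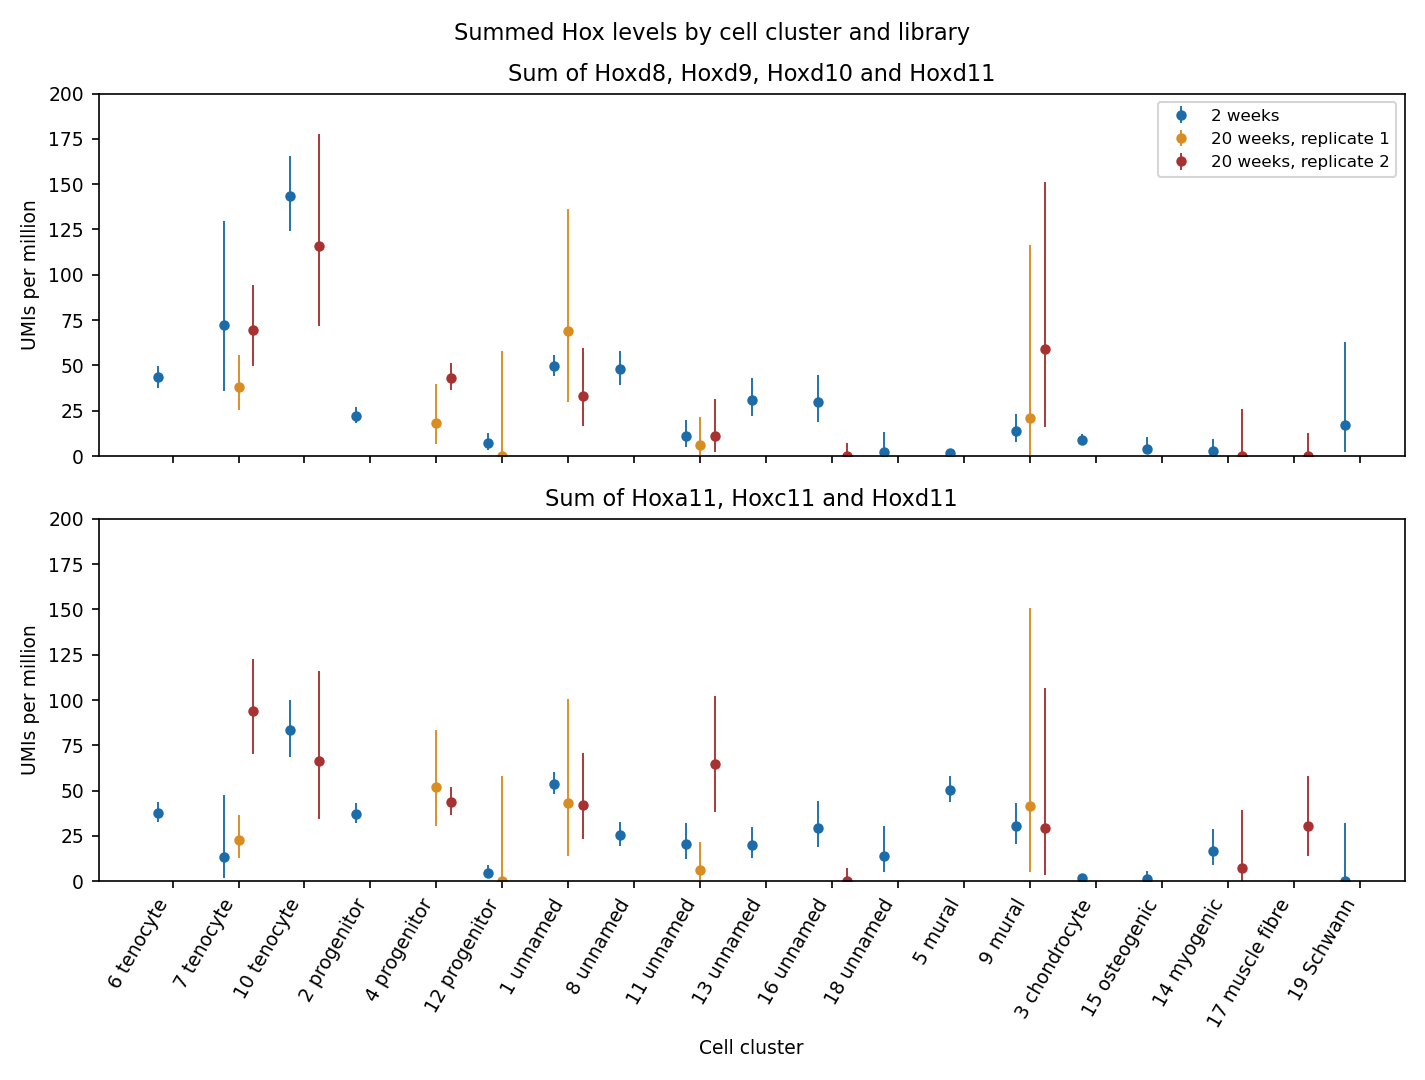
Summed CPM of Hoxd8 to Hoxd11 (top) and of Hoxa11, Hoxc11 and Hoxd11 (bottom) in each cell cluster with at least 20 cells in a library, coloured by library, with exact Poisson 95% intervals. Cluster 10 is highest for Hoxd8 to Hoxd11, at 144 CPM at 2 weeks and 116 CPM in 20-week replicate 2. Clusters 3, 5 and 15 are among those at or under 8.59 CPM at 2 weeks, as are clusters 12 and 14.

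Within tenocyte-like cells, cluster 10, led by Col22a1 and Tnmd, had the highest HoxD levels. Tnmd encodes tenomodulin, a membrane protein of mature tenocytes. In the 2-week library its 211 cells had 62 UMIs of Hoxd8 (45.7 CPM), 33 of Hoxd9 (24.3 CPM), 33 of Hoxd10 (24.3 CPM) and 67 of Hoxd11 (49.4 CPM). The other tenocyte-like cells of that library had 18.9, 10.4, 6.57 and 8.48 CPM of the same genes. The ratios were 2.42 (1.72 to 3.39) for Hoxd8, 2.34 (1.46 to 3.71) for Hoxd9, 3.70 (2.20 to 6.25) for Hoxd10 and 5.82 (3.88 to 8.84) for Hoxd11, with counting intervals only. In 20-week replicate 2, where cluster 10 had 48 cells, the ratio was 3.27 (1.07 to 9.99) for Hoxd11 and 0.871 (0.210 to 2.74) for Hoxd9. In 20-week replicate 1 this cluster had 6 cells and is not described. Hoxa10 ran the other way at 2 weeks, with 59.7 CPM in cluster 10 and 115 CPM in cluster 6, the tenocyte-like cluster led by Angptl7.

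In the 2-week library HoxD transcripts were lower in mural-like than in tenocyte-like cells. The mural-like class holds clusters 5 and 9 only. Cluster 13, unnamed and with Casq2, Pln, Rergl and Des among its leading genes, lies outside it. At 2 weeks that cluster had higher levels of Hoxd8 and Hoxd9 than the mural-like class. Whether it belongs with mural cells was not tested. Hoxd8 had 16 UMIs or 3.36 CPM in mural-like cells at 2 weeks, against 151 UMIs or 24.9 CPM in tenocyte-like cells, and Hoxd9 had 5 UMIs or 1.05 CPM against 82 UMIs or 13.5 CPM. At 20 weeks mural-like cells had 1 and 2 UMIs of Hoxd8 and 0 and 2 UMIs of Hoxd9, the 2 UMIs standing at 28.3 CPM in a class of 36 cells. Tenocyte-like cells of that library, 20-week replicate 2, had 23.3 CPM of Hoxd8 and 24.6 CPM of Hoxd9, so the order there was not the one seen at 2 weeks. Relative to tenocyte-like cells, Hoxd9 fell by 3.21 ± 0.77 (SE) on the log2 scale (edgeR adjusted p = 0.0202) and Hoxd8 fell by 2.48 ± 0.67 (adjusted p = 0.0345). They were 2 of 9 Hox genes tested, where 6.26% of all 7088 genes tested were called lower, 5.85% higher and 12.1% in either direction. Without the 2-week library Hoxd9 was at -1.05 with an adjusted p of 0.634 and Hoxd8 did not pass the filter, and DESeq2 gave adjusted p of 0.174 and 0.383. With Hox genes among the clustering genes 8 Hox genes were tested and 1 was called, Hoxd8 (-2.59, adjusted p = 0.0242 by edgeR). The fit without the block gave Hoxd8 an adjusted p of 0.0621.

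Hoxd10 and Hoxd11 had 0 UMIs in mural-like cells of all 3 libraries. In the 2-week library, taking 3 UMIs in the mural-like sum in place of 0, the tenocyte-like to mural-like ratio was 16.7 for Hoxd10 (lower counting limit 13.2). For Hoxd11 it was 27.9 (lower counting limit 22.3). HoxA genes were present in these cells. Hoxa10 had 114 CPM (104 to 124), 52.6 CPM and 85.0 CPM in mural-like cells, and Hoxa11 had 28.2 CPM at 2 weeks and 0 UMIs in both 20-week libraries, where the sums are small. The 2 differences from tenocyte-like cells were -0.16 ± 0.39 for Hoxa10 (edgeR adjusted p = 0.889) and -0.85 ± 0.69 for Hoxa11 (0.556). Hoxc9 differed by -1.38 ± 0.50 (0.117) and Hoxc11 by 1.13 ± 0.51 (0.226).

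The mural-like clusters were not alike. At 2 weeks cluster 5, with the contractile genes Actg2, Tagln and Myh11 among its leading genes, had 1.87 CPM of Hoxd8 to Hoxd11 together and 0 UMIs of Hoxc8 among 460 cells. Cluster 9, led by the pericyte genes Rgs5, Kcnj8 and Abcc9, had 13.8 CPM of the same HoxD genes and 8.86 CPM of Hoxc8 among 213 cells. Hoxc6 had 7.49 CPM in cluster 5 and 56.1 CPM in cluster 9, and Hoxa11 had 31.8 CPM and 14.8 CPM. Cluster 9 also held 9 of the 10 mural-like UMIs of Hoxa13 at that age.

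Between mural-like and progenitor-like cells no Hox gene was called by edgeR among 11 tested, none had an unadjusted p under 0.05, and DESeq2 called none, where edgeR called 13.5% of all 9605 genes tested (5.62% higher and 7.91% lower). The lowest estimates were -1.46 ± 0.82 for Hoxd9 (adjusted p = 0.349) and -1.41 ± 0.89 for Hoxc8 (0.421), and the highest was 1.18 ± 0.62 for Hoxa9 (0.295). Without 20-week replicate 2, whose mural-like sum is the smallest, 3 of 12 Hox genes tested were called lower in mural-like cells. They were Hoxc8 (-2.20), Hoxc9 (-1.45) and Hoxd8 (-1.55). In that fit 1580 of all 10488 genes tested were called lower and 1148 higher, 26.0% in either direction. Its spread was pooled over all genes.

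**Figure D4:**
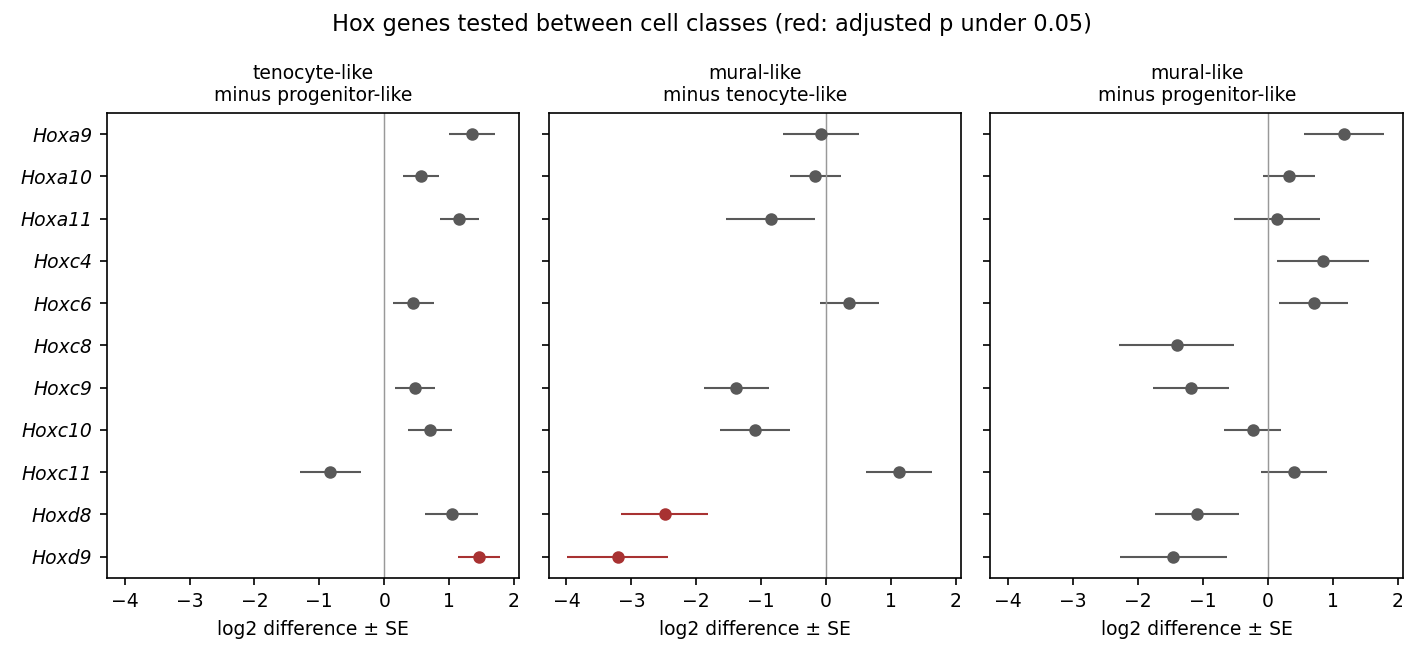
Differences between classes on the log2 scale with their standard errors, for each Hox gene that passed the low-count filter, from sums of UMIs per class and library over 3 libraries; red points have an adjusted p under 0.05. Hoxd9 is red on the right for tenocyte-like minus progenitor-like cells, and Hoxd8 and Hoxd9 are red on the left for mural-like minus tenocyte-like cells.

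Chondrocyte-like and osteogenic-like cells of the 2-week library had few transcripts of paralog number 11 and of HoxD, while Hoxc6 to Hoxc10 were above their tenocyte-like levels. With 1 library these are values without a test. The chondrocyte-like class had 632 cells here, 251 at clustering resolution 1.0 and 508 with Hox genes among the clustering genes. Its extent thus depends on the clustering. The osteogenic-like class had 151, 152 and 150 cells in the same settings. Both classes also carried tenocyte markers, at 5728 CPM in sum in chondrocyte-like and 14970 CPM in osteogenic-like cells against 18090 CPM in tenocyte-like cells, and their part in the values was not tested. Their own markers summed to 6000 and 7918 CPM. Hoxa11 had 2 UMIs in chondrocyte-like cells, or 0.573 CPM (0.0694 to 2.07), and 0 in osteogenic-like cells, against 136 UMIs or 22.4 CPM (18.8 to 26.5) in tenocyte-like cells of the same library. Hoxc11 had 4 UMIs and 1 UMI against 45, and Hoxd11 had 1 UMI and 0 UMIs against 107. The 3 genes together stood at 2.00 CPM and 1.01 CPM in these classes, against 47.4 CPM in tenocyte-like, 29.3 CPM in progenitor-like, 46.3 CPM in mural-like and 16.8 CPM in myogenic-like cells. The ratio of tenocyte-like to chondrocyte-like cells was 39.1 for Hoxa11 (counting interval 10.6 to 326), 61.5 for Hoxd11 (10.8 to 2452) and 6.47 for Hoxc11 (2.36 to 24.8). The osteogenic-like class had 990461 UMIs. With 3 UMIs in place of 0 there, the tenocyte-like to osteogenic-like ratio was 7.39 for Hoxa11 (lower counting limit 5.93) and 5.82 for Hoxd11 (4.65).

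Hoxa10 did not share the gap. It had 83.3 CPM (74.0 to 93.5) in chondrocyte-like and 86.8 CPM (69.5 to 107) in osteogenic-like cells, against 102 CPM (93.7 to 110) in tenocyte-like cells, a tenocyte-like to chondrocyte-like ratio of 1.22 (1.06 to 1.41). The HoxC genes from Hoxc6 to Hoxc10 stood above tenocyte-like cells. Hoxc6 had 49.3 and 35.3 CPM against 11.7 CPM, and Hoxc8 had 19.2 and 46.4 CPM against 2.96 CPM. Hoxc9 had 40.1 and 24.2 CPM against 14 CPM, and Hoxc10 87.3 and 74.7 CPM against 49.7 CPM. The chondrocyte-like over tenocyte-like ratio ranged from 1.76 (1.49 to 2.07) for Hoxc10 to 6.47 (3.80 to 11.6) for Hoxc8, with Hoxc6 at 4.21 (3.18 to 5.64). Hoxc8 reached its highest level of any 2-week cluster in the osteogenic-like cells.

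The progenitor-like clusters were split in a similar way. Cluster 2, led by Cd55 and Scara5, had 37.2 CPM of the genes of paralog number 11 and 22.3 CPM of Hoxd8 to Hoxd11 at 2 weeks. Cluster 12, led by Akr1c18 and with Dpp4 and Pi16 among its top genes, had 4.43 CPM and 6.97 CPM of the same sums among 190 cells. Hoxa11 had 106 UMIs (21.5 CPM) in cluster 2 and 1 UMI (0.633 CPM) in cluster 12. Hoxc8, with 2.64 CPM against 27.2 CPM, and Hoxa7, with 2.23 CPM against 15.2 CPM, ran the other way. Hoxb2 had 0 UMIs in cluster 2 and 23 UMIs (14.6 CPM) in cluster 12, out of 62 in the whole library.

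Muscle and nerve cells had patterns of their own on small counts. Myogenic-like cells, which carry Pax7, had 2.58 CPM of HoxD genes from 2 UMIs at 2 weeks and 0 UMIs in 20-week replicate 2, with Hoxc10 at 42.6 and 42.5 CPM. They had 11 and 2 UMIs of the hindlimb gene Tbx4 in these libraries and 0 of Pitx1. Muscle-fibre-like cells of 20-week replicate 2 had 0 HoxD UMIs, 26 UMIs of Hoxc10 (88.7 CPM) and 9 UMIs of Hoxc11 (30.7 CPM). The 34 Schwann-like cells of the 2-week library had 7 HoxB UMIs among their 13 Hox UMIs, or 60.8 CPM (24.5 to 125), and 0 UMIs of Hoxa10, for which 3 counts would be 26.1 CPM. Outside the Schwann-like cells, HoxB genes reached 27.2 CPM in cluster 12 and at most 13.1 CPM in every other cluster of that library.

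Cluster 1, a large unnamed cluster with 999 cells at 2 weeks and Igfbp3 and Sfrp2 as leading genes, had 93.7 CPM of Hoxa10, 49.8 CPM of Hoxd8 to Hoxd11 and 53.9 CPM of paralog number 11, against 66.5 and 47.4 CPM of these sums in tenocyte-like cells. Its 44 and 78 cells of 20-week replicates 1 and 2 had 69.1 and 33.2 CPM of Hoxd8 to Hoxd11, against 38.3 and 79.0 CPM in tenocyte-like cells. Cluster 8, led by Fmo2 and Hmcn2, had 30.4 CPM of Hoxd8, the highest level of that gene outside cluster 10 at 2 weeks, beside 1.81 CPM of Hoxd10. Cluster 13, led by Casq2 and Pln among others, had 17.6 CPM of Hoxd8 and 12.6 CPM of Hoxd9 but 0 UMIs of Hoxd11. Mural-like cells, which do not include it, had 3.36 CPM of Hoxd8 and 1.05 CPM of Hoxd9 at 2 weeks.

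Between the ages no Hox gene was called. The age comparison asks whether Hox levels differ between tendons at 2 and at 20 weeks, with 1 library against 2. In all cells edgeR called 0 of 19 Hox genes tested, with 0 at an unadjusted p under 0.05 and 0 called by DESeq2, and 0.12% of all 13308 genes tested were called (0.015% higher and 0.105% lower at 20 weeks). Hoxa10 had the lowest p, with a difference of -0.82 ± 0.40 (SE) on the log2 scale (adjusted p = 0.717). Hoxc11 differed by 0.66 ± 0.52 (adjusted p = 0.904), Hoxd9 by 0.75 ± 0.56 (0.889) and Hoxd11 by -1.11 ± 0.80 (0.883). The ratios of each 20-week library to the 2-week library had the same sign in 14 of 19 genes. For Hoxc11 these log2 ratios were 0.06 in 20-week replicate 1 and 1.06 in 20-week replicate 2.

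In tenocyte-like cells 0 of 9 Hox genes tested were called by edgeR, 0 had an unadjusted p under 0.05 and DESeq2 called 0, where edgeR called 8.83% of all 7875 genes tested (4.39% higher and 4.43% lower). Hoxa10 had 102 CPM at 2 weeks and 32.8 and 94.6 CPM at 20 weeks, a difference of -0.89 ± 0.53 (adjusted p = 0.394), and the 20-week libraries lay far apart. Hoxc9 had 14, 21.9 and 37.6 CPM (0.89 ± 0.54, adjusted p = 0.406), with both 20-week libraries above the 2-week library. Hoxa11 had 22.4, 19.1 and 53.1 CPM (0.48 ± 0.50, adjusted p = 0.736).

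In progenitor-like cells edgeR called 0 of 14 Hox genes tested and DESeq2 0, where edgeR called 3.89% of all 11315 genes tested (2.24% higher and 1.64% lower). At an unadjusted p under 0.05 there was 1 gene, Hoxc11, with 10.4 CPM at 2 weeks and 24.7 and 24.3 CPM at 20 weeks. Its difference was 1.24 ± 0.59 (adjusted p = 0.391). Hoxa9 had 21.4, 13.5 and 8.75 CPM (-1.08 ± 0.61, adjusted p = 0.569). Hoxb2, at -3.34 ± 2.01, was not called. Its 23 progenitor-like UMIs at 2 weeks all lay in cluster 12, out of 62 over all cells of that library. Cluster 12 had 190 cells at 2 weeks and 22 and 1 at 20 weeks, and its part in the difference was not tested. In mural-like cells 2 Hox genes passed the filter and edgeR called 0, with 0 at an unadjusted p under 0.05. There DESeq2 called 0 and had 1 at an unadjusted p under 0.05, and edgeR called 0.127% of 2357 genes.

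The age difference itself was compared between tenocyte-like and progenitor-like cells through an interaction term. Of 9 Hox genes tested edgeR called 0, and 2 had an unadjusted p under 0.05, with 2.48% of all 9658 genes tested called (1.57% positive and 0.911% negative). These were Hoxc10, at -1.27 ± 0.45 (adjusted p = 0.236), and Hoxa9, at 1.29 ± 0.54 (adjusted p = 0.366). Hoxc10 had 49.7, 34.2 and 28.5 CPM in tenocyte-like cells and 24.3, 26.9 and 34.0 CPM in progenitor-like cells in the 2-week library and 20-week replicates 1 and 2.

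**Figure D5:**
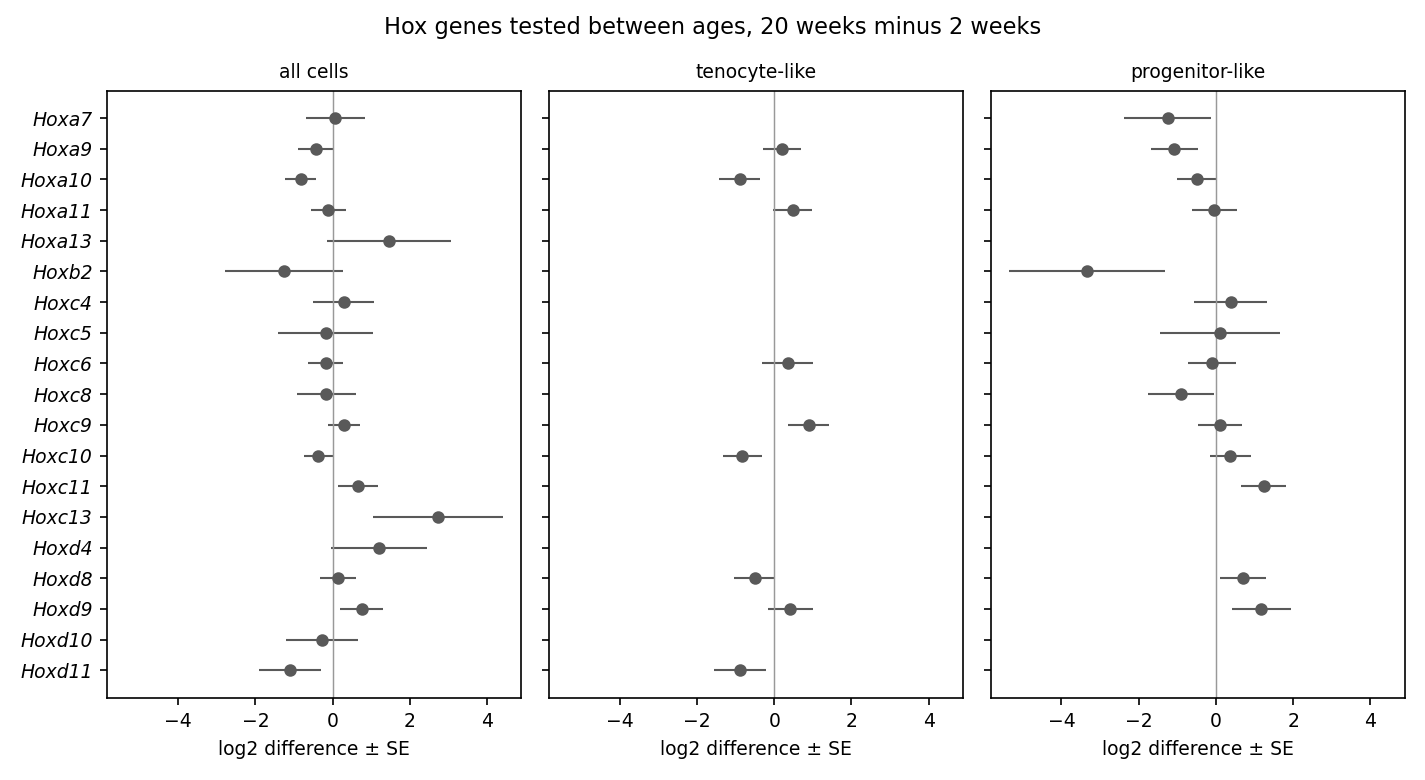
Differences between ages (20 weeks minus 2 weeks) on the log2 scale with their standard errors, for each Hox gene that passed the low-count filter, in all cells, tenocyte-like and progenitor-like cells. None has an adjusted p under 0.05, and Hoxb2, Hoxc13 and Hoxa13 are among those with the widest errors.

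The genes that set limb type and limb axes were read from a fixed list of 42, beside the Hox code. Pitx1 and Tbx4 are known as hindlimb genes and Tbx5 as a forelimb gene. Over all cells Pitx1 had 44.2, 70.0 and 15.6 CPM in the 2-week library and 20-week replicates 1 and 2, Tbx4 14.1, 6.72 and 7.54 CPM, and Tbx5 4.39, 5.04 and 1.80 CPM. Pitx1 thus exceeded Tbx4, and Tbx4 exceeded Tbx5, in each library, though in 20-week replicate 1 the counting intervals of the last pair overlapped. Pitx1 had 64.5, 130 and 54.4 CPM in tenocyte-like cells and 36.3, 40.4 and 8.75 CPM in progenitor-like cells, higher in tenocyte-like cells by 1.85 ± 0.33 (edgeR adjusted p = 0.0182). In mural-like cells it had 17, 0 and 0 UMIs, and it fell by 4.72 ± 0.60 relative to tenocyte-like cells (adjusted p = 0.000457). Tbx4 had 1, 0 and 0 UMIs there and fell by 4.88 ± 1.09 relative to progenitor-like cells (adjusted p = 0.00524). Mural-like cells thus had Hoxa10 at 114 CPM and Pitx1 at 3.57 CPM at 2 weeks, whereas chondrocyte-like cells had both, at 83.3 and 108 CPM, and Tbx5 at 16.6 CPM.

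Of the other named limb genes, Shox2 had 45.8, 17.8 and 53.1 CPM in tenocyte-like and 65.2, 65.1 and 54.8 CPM in progenitor-like cells, and Prrx1, a mesenchyme gene, 241, 331 and 193 CPM in all cells. Lmx1b, a gene of the dorsal limb side, had 1.64, 6.16 and 0.180 CPM in all cells. None of Shox2, Prrx1 and Tbx5 was called in a comparison that tested it, and the same holds for Lmx1b. Prrx2 fell in mural-like cells, by 5.90 ± 0.66 relative to tenocyte-like cells (adjusted p = 0.000223) and by 5.62 ± 0.79 relative to progenitor-like cells (0.000101). Tbx2 was higher in mural-like cells in both comparisons (2.67 ± 0.66, adjusted p = 0.0229, and 4.14 ± 0.53, 3.96e-05), and the BMP ligand gene Bmp4 was lower in both (-4.63 ± 0.63, 0.000706, and -5.09 ± 0.62, 2.5e-05). Against progenitor-like cells Isl1 (-6.18 ± 0.72), Emx2 (-3.23 ± 0.76) and Irx3 (-2.66 ± 0.75) were lower in mural-like cells. Of this list, 15 genes were tested between mural-like and tenocyte-like cells and 1 was higher and 3 lower. Between mural-like and progenitor-like cells 1 of 21 was higher and 7 lower, and between tenocyte-like and progenitor-like cells 3 of 23 were higher and 1 lower. Over all genes tested, 5.85% were higher and 6.26% lower in the first of these comparisons, 5.62% and 7.91% in the next and 4.58% and 5.71% in the last. The genes called between tenocyte-like and progenitor-like cells were Lhx9 (4.65 ± 0.75, adjusted p = 0.0131), Bmp2 (0.87 ± 0.21, 0.049) and Pitx1, with Emx2 lower (-2.74 ± 0.46, 0.0149).

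By age, 0 of 33 limb genes tested were called in all cells. In tenocyte-like cells 3 of 22 were higher at 20 weeks and 1 was lower, against 4.39% and 4.43% of all genes tested. They were the homeobox gene Msx1 (3.22 ± 0.58, adjusted p = 2.3e-06), Dlx5 (4.54 ± 1.40, 0.0178) and Bmp2 (1.92 ± 0.61, 0.0235), with Meox1 lower (-2.38 ± 0.51, 0.000118). Dlx5, known from bone-forming cells, had 0.659, 16.4 and 20.7 CPM in the class whose osteogenic markers summed to 27.3, 8445 and 4248 CPM, and the part of those cells in the result was not tested. Meox1 had 84.5, 2.73 and 35.0 CPM in tenocyte-like and 3.21, 11.2 and 51.9 CPM in progenitor-like cells. Its 20-week replicates thus lay far apart in both classes. A gene's own spread between replicates was not measured in these fits, which pooled the spread over all genes. In progenitor-like cells Msx1 (3.08 ± 0.58, adjusted p = 1.12e-05) and Meox1 (3.45 ± 0.64, 1.05e-05) were higher at 20 weeks, 2 of 29 tested, against 2.24% of all genes.

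The TALE cofactors, which bind DNA together with Hox proteins, were measured in the same cells. Meis2 had 15.2, 8.96 and 17.6 CPM in all cells, Pbx3 10.2, 6.72 and 10.6 CPM and Meis1 3.13, 4.48 and 3.59 CPM. Myogenic-like cells had 0 UMIs of Meis2 in each library. None of the cofactors tested (11 in all cells, 5 in tenocyte-like, 9 in progenitor-like and 1 in mural-like cells) was called between ages. Meis3 was lower in tenocyte-like than in progenitor-like cells (-1.83 ± 0.31, edgeR adjusted p = 0.0152). It was among 2 cofactors called lower of 7 tested, with 0 higher, against 5.71% and 4.58% of all genes. Of 24 chromatin regulators of Hox genes, Ezh1, a Polycomb methyltransferase, was higher at 20 weeks in tenocyte-like cells (1.67 ± 0.53, 0.0236), 1 of 20 tested against 4.39% of all genes. Cbx7, a Polycomb reader, was higher at 20 weeks in progenitor-like cells (3.55 ± 0.72, 7.5e-05), 1 of 23 tested against 2.24% of all genes. No such gene was called in all cells, in mural-like cells or between classes.

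Noncoding RNAs transcribed within the Hox clusters followed the class pattern in part. Hotairm1, a noncoding RNA of the HoxA cluster, had 34.3, 31.5 and 156 CPM in mural-like cells, 1.48, 1.37 and 0 CPM in tenocyte-like cells and 2.75, 4.49 and 0.973 CPM in progenitor-like cells. It was higher in mural-like cells by 4.82 ± 0.66 against tenocyte-like (adjusted p = 0.000763) and by 4.43 ± 0.66 against progenitor-like cells (0.000162). Hoxd3os1 was lower in mural-like than in tenocyte-like cells (-2.98 ± 0.69, 0.0168), higher in tenocyte-like than in progenitor-like cells (1.68 ± 0.34, 0.0294) and higher at 20 weeks in progenitor-like cells (2.02 ± 0.63, 0.0348). Its levels were 22.7, 17.8 and 73.8 CPM in tenocyte-like, 5.80, 13.5 and 29.8 CPM in progenitor-like and 2.10, 21 and 14.2 CPM in mural-like cells, the last from 10, 2 and 1 UMIs. Hoxa11os, antisense to Hoxa11, had 28.6, 13.7 and 19.4 CPM in tenocyte-like cells and 1.15 CPM in chondrocyte-like cells at 2 weeks, low in the same cells as Hoxa11. Whether the counting used strand is not given in the sources used here, so reads of an antisense RNA and its partner may not be told apart. The neighbour Snx10 was lower in tenocyte-like than in progenitor-like cells (-2.40 ± 0.36, 0.0106). Relative to tenocyte-like cells, 1 of 7 tested members of this list was higher in mural-like cells and 1 lower, against 5.85% and 6.26% of all genes. Relative to progenitor-like cells, 1 of 10 was higher in mural-like cells and 0 lower, against 5.62% and 7.91%. Between tenocyte-like and progenitor-like cells 1 of 9 was higher and 1 lower, against 4.58% and 5.71%. Of the 21 measured members of this list, the cluster-end genes Evx1 and Evx2 had 0 UMIs, Hottip had 2, 0 and 1 UMIs and Hotair 63, 2 and 19 UMIs.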

How the data were processed

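Single-cell RNA was counted in 3 libraries with the Chromium 3′ v3.1 kit, per the labels' protocols. The authors deposited raw UMI counts per gene and barcode, made with Cell Ranger 6.1.2 on mm10 per the submitters' processing notes; the annotation and counting settings are not given in the sources used here. Barcodes were kept with at least 500 genes, 1000 UMIs and at most 10% mitochondrial UMIs (4964, 609 and 1015 of 5654, 715 and 1169). Doublets called by a simulated-doublet score were removed (40, 3 and 2, against 3.97%, 0.487% and 0.812% expected and 0.806%, 0.493% and 0.197% found). The 2-week call rate was therefore low and some doublets may remain.

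Clusters came from 2000 variable genes without Hox genes or Hox-cluster noncoding RNAs (scanpy 1.11.5, 30 components, 15 neighbours, Leiden resolution 0.5), and took a name when at least 2 of the 10 leading genes by fold were markers of 1 type and at least 3 markers were detected. Tests were edgeR 4.0.16 quasi-likelihood fits (R 4.3.3) of counts summed per library or per class and library, with TMM, filterByExpr and Benjamini-Hochberg adjustment over all genes at 0.05. Age fits have 1 residual degree of freedom and assume that the lone 2-week library varies like the others; class fits take the library as a block, since both classes of a pair come from the same library. Each class required 20 cells per library. Standard errors were derived from the F statistic. In the main age fits of single classes the prior degrees of freedom were infinite, so the spread was pooled over all genes. Simulated counts with known changes tested the fits. CPM are plain. Ratios within a library carry exact binomial counting intervals. DESeq2 1.42.0, other filters, clusterings, depths and left-out libraries were the alternatives.

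Full values are given for Hox genes with at least 5 CPM over all cells in 1 library, called Hox genes, Hoxc4, Hoxc5 and paralog numbers 12 and 13; for other lists, a set of limb and cofactor genes and called members. Results for some genes are not reported here. The Hox genes and lists were chosen with earlier results of these data known. Positions and homeoboxes are from GENCODE M21 (GRCm38), the homeobox being located through the conserved core of its DNA-contacting helix; 39 of 39 genes matched by identifier.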

Additional observations from a re-analysis of the deposited data

Results flagged for a closer look

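Meox1, a homeobox gene, differed between tenocyte-like and progenitor-like cells in its age difference, by -5.66 ± 0.54 (SE) on the log2 scale (interaction term, edgeR adjusted p = 0.00021). It had 84.5, 2.73 and 35.0 CPM in tenocyte-like and 3.21, 11.2 and 51.9 CPM in progenitor-like cells of the 2-week library and 20-week replicates 1 and 2. Irx3 differed by 4.98 ± 1.03 (adjusted p = 0.0235), with 0.329, 10.9 and 3.89 CPM in tenocyte-like and 25.9, 20.2 and 8.43 CPM in progenitor-like cells. Dlx5 differed by 4.78 ± 1.01 (adjusted p = 0.0262), with 0.659, 16.4 and 20.7 CPM and 6.72, 8.98 and 4.86 CPM. The clusters behind both classes differ between the ages, and their part in these values was not tested.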

How the results depend on the processing

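The number of Hox genes called between mural-like and tenocyte-like cells, 2 of 9 tested, became 1 of 9 without the replicate block (the library as a block). It became 0 of 34 with DESeq2, 4 of 34 with no low-count filter and 1 of 8 with Hox genes among the clustering genes. With 1 library left out it was 0 of 4, 4 of 17 and 4 of 12. Of all genes tested, 4.54% (DESeq2) to 16.7% (without 20-week replicate 2) were called. Between mural-like and progenitor-like cells 0 of 11 became 2 of 32 with no filter and 1 of 10 with Hox genes among the clustering genes. In the last setting 20-week replicate 2 had 11 progenitor-like cells and so left the fit. With 1 library left out the number was 0 of 1, 0 of 14 and 3 of 12. Of all genes tested, 6.08% (DESeq2) to 26.0% (without 20-week replicate 2) were called. Between tenocyte-like and progenitor-like cells 1 of 9 became 0 of 9 without the replicate block and 2 of 35 with DESeq2. It became 6 of 35 with no filter and 3 of 9 at clustering resolution 1.0. With 1 library left out it was 2 of 9, 1 of 18 and 1 of 14. Of all genes tested, 4.15% (without the block) to 14.5% (resolution 1.0) were called. These counts are of different genes. Hoxd9 was among those called with no filter and at resolution 1.0. It was not among those called with DESeq2, with Hox genes among the clustering genes or with 1 library left out. The cause was not tested. The counts of 0 by age held in every alternative that was run, and no called Hox value changed sign in an alternative. Over all genes and the alternatives fitted, the number called ranged from 0 to 660 by age in all cells, 66 to 766 in tenocyte-like, 122 to 440 in progenitor-like and 0 to 5 in mural-like cells. Between classes it ranged from 613 to 2023 (mural-like and tenocyte-like), 626 to 2728 (mural-like and progenitor-like), 401 to 2162 (tenocyte-like and progenitor-like) and 116 to 449 for the class-by-age term. The share of cells with a Hox UMI was 23.6%, 18.1% and 24.0% at 1000 UMIs and 75.4%, 42.7% and 64.7% unthinned, in the 2-week library and 20-week replicates 1 and 2. All 30 sums by Hox cluster and paralog number stayed within their counting intervals over all deposited barcodes. No paired analysis was possible because the 2-week library has no partner at 20 weeks, which applies to age. Not run were the age test of mural-like cells with the stricter cell filter and of progenitor-like cells with Hox genes among the clustering genes, where a library had under 20 cells. The depth of the 20-week mural-like sums leaves HoxD there unresolved.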
